A study of Mus musculus with 11 samples.

Results

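The interleukin-1 family signalling genes measured here are 9 genes that code for ligands, receptor chains and the first intracellular steps of interleukin-1 type signalling. They were taken by gene name from a count table of 47131 genes, and all 9 (Il1rn, Il18, Il33, Il1r1, Il1rap, Myd88, Irak1, Irak2 and Irak4) were among the 14840 genes with enough counts to be tested. RNA was sequenced from mouse colorectal organoids, an epithelial culture started from the colon of female C57BL/6J mice, 6 to 8 weeks old, and kept in Matrigel with IntestiCult medium. In 6 libraries the organoids had received 10 pM NAP for 48 h, and in 5 control libraries they had not. The labels give no fuller name for NAP, describe the controls once as untreated and once as given PBS as vehicle, and put every library in batch 1. The replicates are called biological with no statement of whether each had its own animal or culture, so p-values reflect the spread among libraries, which may be partly technical.

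Cytokines of the interleukin-1 family bind a specific receptor chain, which then recruits an accessory chain, and both carry an intracellular TIR domain. The adaptor MyD88 docks on these domains and assembles the kinases IRAK4, IRAK1 and IRAK2, from which the signal passes through TRAF6 to NF-κB and MAP kinases. In the gut, interleukin-18 and interleukin-33 are made by the epithelium or the cells beneath it, and the receptor antagonist encoded by Il1rn occupies the receptor without starting a signal.

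Of the 9 genes, Il1rn was higher in NAP organoids and the other 8 did not pass an adjusted p of 0.05. Il1rn rose 1.78-fold, with every NAP library above every control library. In bulk RNA, more cells of a type and more RNA per cell, or fewer and less, cannot be told apart. Irak2 averaged 67.9 ± 20.7 CPM in NAP libraries and 38.9 ± 12.04 CPM in control libraries, and Myd88 averaged 20.9 ± 3.34 CPM in NAP libraries and 27.6 ± 3.96 CPM in control libraries (SD, n = 6 NAP and 5 control libraries here and below), without passing the test. CPM are counts set against each library's total after TMM scaling, which corrects for differences in library composition. Irak4 and Irak1 had log2 fold changes near 0. Their intervals were −0.28 to 0.35 for Irak4 and −0.43 to 0.44 for Irak1, which leaves room for a change either way. The intervals of Il18, Il33, Il1r1 and Il1rap were wider. By edgeR's quasi-likelihood test 1 of the 9 genes was called higher and 0 lower, against 1.05% of all tested genes called higher, 1.07% called lower and 2.12% called in either direction. At an unadjusted p under 0.05, 2 of the 9 were higher and 1 was lower, where 10.8% of all tested genes were higher and 12.7% lower. The median log2 fold change was 0.04 over the 9 genes and −0.07 over all tested genes.

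**Figure D1:**
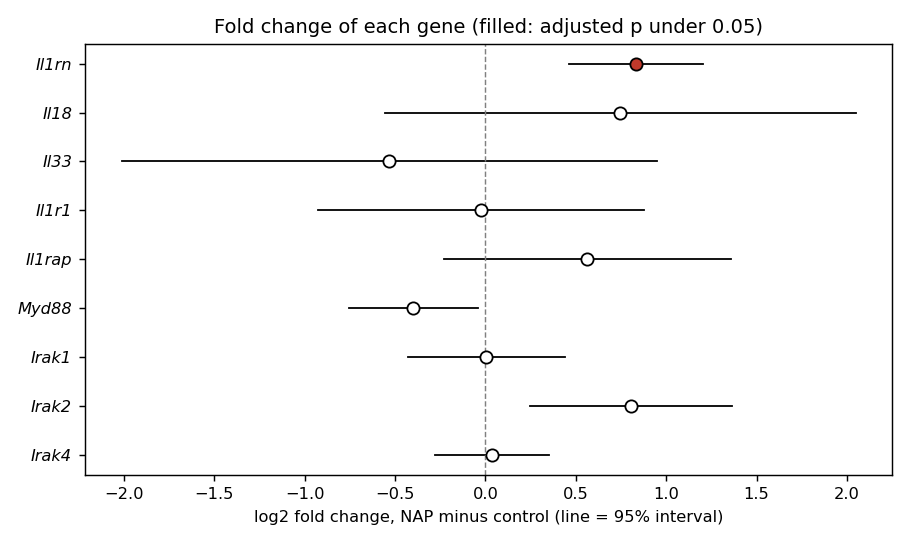
Log2 fold change of each gene, NAP minus control, with its 95% interval as a line; the filled point has an adjusted p under 0.05 (edgeR quasi-likelihood). Il1rn at 0.83 is the filled point, Irak2 at 0.81 and Myd88 at −0.40 have intervals that leave out 0, and the intervals of the other 6 genes span 0.

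Totals ranged from 16595733 to 20981155 counts in NAP libraries and from 16546263 to 21947414 counts in control libraries. The labelled tissue was checked with 10 epithelial markers, all of them tested, which summed to 13210 to 17090 CPM in NAP libraries and 11580 to 23720 CPM in control libraries. Markers of other cell types were low: 12 leukocyte markers summed to 18.6 to 35.4 CPM in NAP and 14.2 to 50.8 CPM in control libraries, and 8 fibroblast markers to 7.71 to 52.7 CPM in NAP and 2.199 to 32.4 CPM in control libraries. Single genes made up much of the highest sums. Kit held 38.8 CPM of the leukocyte sum in control 4, and Pdgfrb 30.85 CPM of the fibroblast sum in NAP library 5 and 28.85 CPM in control 2. Ptprc, the pan-leukocyte marker, had 7 counts over all NAP libraries and 20 over all control libraries. A colonocyte score, the mean deviation of log2 CPM over 10 colonocyte markers minus that over 9 tested crypt markers, set controls 2 and 5 at 2.64 and 2.61 and controls 1 and 4 at −2.68 and −3.57, while NAP libraries lay between −0.61 and 1.37. Mitochondrial genes took 5.18 to 8.08% of counts in NAP libraries and 2.74 to 4.78% in control libraries. The rank correlation of transcript GC content with a library's deviations from each gene's mean log2 CPM, across genes that are not independent replicates, ran from −0.54 to 0.12 in NAP libraries and from 0.02 to 0.36 in control libraries.

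Il1rn (gene 16181; GRCm39 chromosome 2, 24226872 to 24241503, plus strand) is the gene on which the comparison turns, so its upstream sequence is shown, beside those of Irak2 and Myd88, the other genes with an unadjusted p under 0.05. Each line gives the 250 bases before an annotated RefSeq start in build GRCm38.p6, 5′ to 3′ on the gene's strand, and capitals mark a match to the AP-1 motif TGANTCA.
Il1rn, first start, chr2:24336610-24336859, plus strand: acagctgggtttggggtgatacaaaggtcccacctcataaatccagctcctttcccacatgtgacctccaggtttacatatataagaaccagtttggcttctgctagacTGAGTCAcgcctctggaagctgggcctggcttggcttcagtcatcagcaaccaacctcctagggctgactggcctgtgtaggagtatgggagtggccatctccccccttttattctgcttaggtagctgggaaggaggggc
Il1rn, later start, chr2:24345041-24345290, plus strand: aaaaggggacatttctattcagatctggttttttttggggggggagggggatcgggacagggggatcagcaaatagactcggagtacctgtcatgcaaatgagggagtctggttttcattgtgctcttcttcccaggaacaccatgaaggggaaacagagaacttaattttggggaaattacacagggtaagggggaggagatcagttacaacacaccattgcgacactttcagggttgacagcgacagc
Irak2, chr6:113638217-113638466, plus strand: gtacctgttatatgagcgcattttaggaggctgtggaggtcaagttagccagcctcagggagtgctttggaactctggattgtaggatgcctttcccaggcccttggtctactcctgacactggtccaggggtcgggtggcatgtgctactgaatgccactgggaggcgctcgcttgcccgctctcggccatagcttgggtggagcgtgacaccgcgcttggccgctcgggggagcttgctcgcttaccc
Myd88, chr9:119340019-119340268, minus strand: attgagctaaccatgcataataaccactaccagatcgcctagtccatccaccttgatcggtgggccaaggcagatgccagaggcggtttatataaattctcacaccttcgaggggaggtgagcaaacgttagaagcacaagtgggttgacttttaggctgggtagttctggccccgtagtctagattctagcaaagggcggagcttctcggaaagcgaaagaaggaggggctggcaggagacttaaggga
RefSeq gave 14 such windows for the 9 genes, searched on both strands. The Il1rn window furthest upstream held TGAGTCA, whose first base lies 141 bases before the start, and it was the 1 window of 14 with an AP-1 match, where 6.75% of all 32817 windows held one. The κB consensus was found in a different window, 1 of the 14, at 232 bases before an Il1r1 start, and in 3.90% of all windows. A match is a description of letters, and none of these windows was measured for binding.

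Among the ligands, Il1rn codes for the interleukin-1 receptor antagonist. It had 346, 251, 274, 246, 233 and 265 CPM in NAP libraries 1 to 6, against 137, 122, 196, 169 and 132 CPM in control libraries 1 to 5. NAP library 1 was the highest of all and control 3 the highest control, and the groups did not overlap, as was so for 2.14% of all tested genes with NAP higher, 2.57% with NAP lower and 4.71% in either direction. The means were 269 ± 40.5 CPM in NAP libraries and 151 ± 30.5 CPM in control libraries, a log2 fold change of 0.83 (SE 0.17, 95% interval 0.46 to 1.204; edgeR quasi-likelihood, adjusted p = 0.0417). The locus is known to be read from alternative first exons that give secreted and intracellular forms, which counts per gene do not separate. The direction held in 29 of 29 other settings, and the call in 15 of them. It was lost when NAP library 2, 4, 5 or 6 or control library 1, 2 or 5 was left out, with edgeR's adjusted p then 0.0564 to 0.112. The longest Il1rn transcript has a GC content of 41.6%, and with the GC trend of each library removed the log2 fold change was 0.61 (adjusted p = 0.107). With the mitochondrial chromosome left out it was 0.83 (adjusted p = 0.0422).

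**Figure D2:**
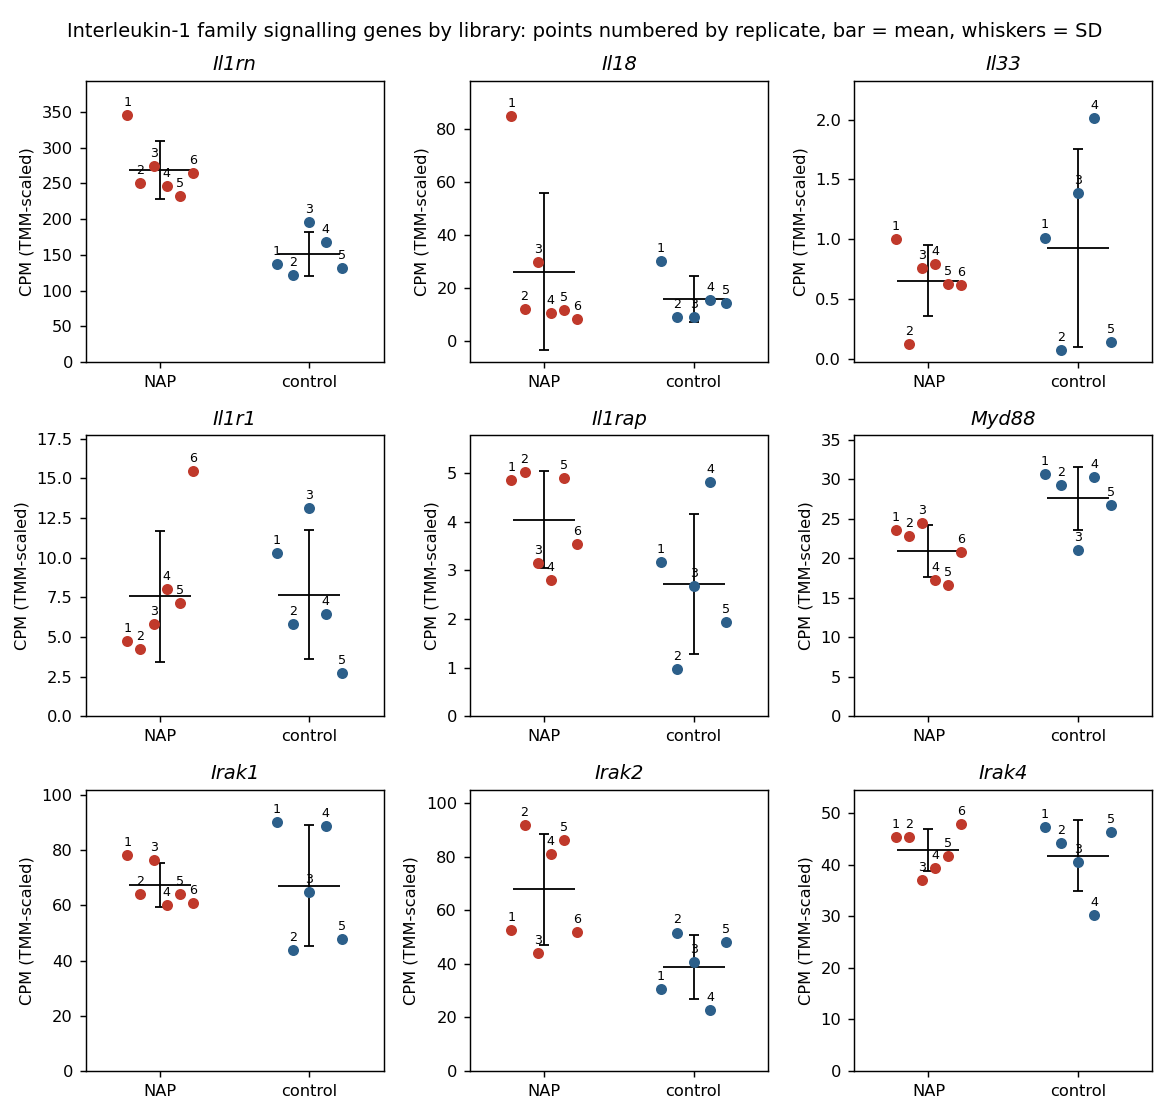
TMM-scaled CPM of each of the 9 genes in 6 NAP and 5 control libraries; each point is a library, with the group mean and SD. For Il1rn all 6 NAP libraries (233 to 346 CPM) lie above all 5 control libraries (122 to 196 CPM), while the groups overlap for the other 8 genes.

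Il18 codes for a pro-cytokine that caspase-1 cleaves. It had 84.9, 11.97, 29.6, 10.5, 11.5 and 8.30 CPM in NAP libraries 1 to 6, against 30.2, 9.01, 8.91, 15.4 and 14.3 CPM in control libraries 1 to 5. NAP library 1 stood far above the other libraries, which otherwise overlapped. The log2 fold change was 0.75 (SE 0.60, 95% interval −0.56 to 2.05; edgeR, adjusted p = 0.477), and it was −0.12 without NAP library 1. On the plus strand of chromosome 9 (50466000 to 50493141), Il18 overlaps Bco2 by 514 bases and Tex12 by 4121 bases, both on the opposite strand. Whole gene spans were compared, not exons, and the strand setting is not given. Reads there may thus have been assigned with less certainty, which was not tested. Bco2 had 1110 counts over all NAP libraries and 862 over all control libraries, and Tex12 had 39 over all NAP libraries and 73 over all control libraries. Il18 had 2798 over all NAP libraries and 1526 over all control libraries.

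Il33 codes for a nuclear alarmin that is set free from damaged cells. It was close to the detection limit, with 18, 2, 14, 13, 10 and 13 counts in NAP libraries 1 to 6, against 22, 1, 32, 44 and 2 counts in control libraries 1 to 5. The NAP libraries lay within the range of the control libraries, in which controls 2 and 5 were lowest. Its log2 fold change of −0.53 had a 95% interval of −2.01 to 0.95 (edgeR, adjusted p = 0.669). Neither a rise nor a fall was detectable at these low counts and with this spread among controls.

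The receptor chains were expressed at low levels. Il1r1, the signalling receptor for interleukin-1, ranged from 4.25 to 15.5 CPM with a median of 6.48 CPM in NAP libraries, and had 10.3, 5.80, 13.1, 6.46 and 2.72 CPM in control libraries 1 to 5. The groups overlapped almost completely, with NAP library 6 highest and control 5 lowest. Its log2 fold change was −0.02, with a 95% interval of −0.92 to 0.88 (edgeR, adjusted p = 0.978). Il1rap, the accessory chain shared by the receptors for interleukin-1, interleukin-33 and interleukin-36, averaged 4.04 ± 1.00 CPM in NAP libraries and 2.72 ± 1.43 CPM in control libraries. Its log2 fold change of 0.56 had a 95% interval of −0.23 to 1.36 (edgeR, adjusted p = 0.374). Among the controls it was lowest in libraries 2 and 5, at 0.98 and 1.93 CPM, and highest in library 4, at 4.81 CPM. With controls 2 and 5 left out the log2 fold change was 0.21, and with controls 1 and 4 left out it was 1.13 (adjusted p = 0.0811). These are the controls that lay at the ends of the colonocyte score.

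Myd88 is the adaptor on which these receptors converge. It had 23.6, 22.8, 24.5, 17.2, 16.6 and 20.7 CPM in NAP libraries 1 to 6, against 30.7, 29.3, 21.1, 30.3 and 26.7 CPM in control libraries 1 to 5. All controls but library 3 lay above every NAP library. The log2 fold change was −0.40 (SE 0.16, 95% interval −0.75 to −0.04; edgeR, unadjusted p = 0.0304 and adjusted p = 0.166). Its sign was negative in 29 of 29 other settings, between −0.48 and −0.15, and it passed the threshold in 0 of them.

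Irak4 is the kinase that MyD88 binds first. Its log2 fold change was 0.04, with a 95% interval of −0.28 to 0.35 (edgeR, adjusted p = 0.898), and its levels were 42.8 ± 4.11 CPM in NAP libraries and 41.7 ± 6.91 CPM in control libraries. Irak1, the kinase that IRAK4 phosphorylates, had means of 67.4 ± 7.99 CPM in NAP libraries and 67.1 ± 21.9 CPM in control libraries. Its log2 fold change was 0.00, with an interval of −0.43 to 0.44 (edgeR, adjusted p = 0.992). The NAP libraries lay between 60.0 and 78.2 CPM and the control libraries were wider, with controls 2 and 5 at 43.9 and 47.8 CPM and controls 1 and 4 at 90.3 and 88.7 CPM. Those pairs of controls were also the extremes of the colonocyte score, in the reverse order, and with that score as a covariate the log2 fold change was 0.19 (adjusted p = 0.206).

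Irak2, the IRAK known for sustaining the response in mouse macrophages, had 52.5, 91.9, 43.9, 81.0, 86.1 and 51.9 CPM in NAP libraries 1 to 6, against 30.8, 51.7, 40.8, 22.8 and 48.3 CPM in control libraries 1 to 5. NAP libraries 2, 4 and 5 lay well above all others, and NAP library 3 lay below controls 2 and 5. The log2 fold change was 0.81 (SE 0.26, 95% interval 0.25 to 1.36; edgeR, unadjusted p = 0.00816 and adjusted p = 0.0922). NAP libraries 2, 4 and 5 also had the highest colonocyte scores among NAP libraries (1.37, 0.91 and 1.11), and controls 2 and 5 the highest among controls. With that score as a covariate the log2 fold change was 0.67 (adjusted p = 0.0171), with controls 2 and 5 left out it was 1.13 (adjusted p = 0.0463), and DESeq2 gave 0.83 (adjusted p = 0.0347). Each of those settings also called more of all tested genes than the 315 called by edgeR in all libraries, up to 3133 with the score. The same settings recur below for other genes. Over all 29 other settings the log2 fold change of Irak2 stayed positive, from 0.56 to 1.13, with adjusted p from 0.0171 to 0.296.

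**Figure D3:**
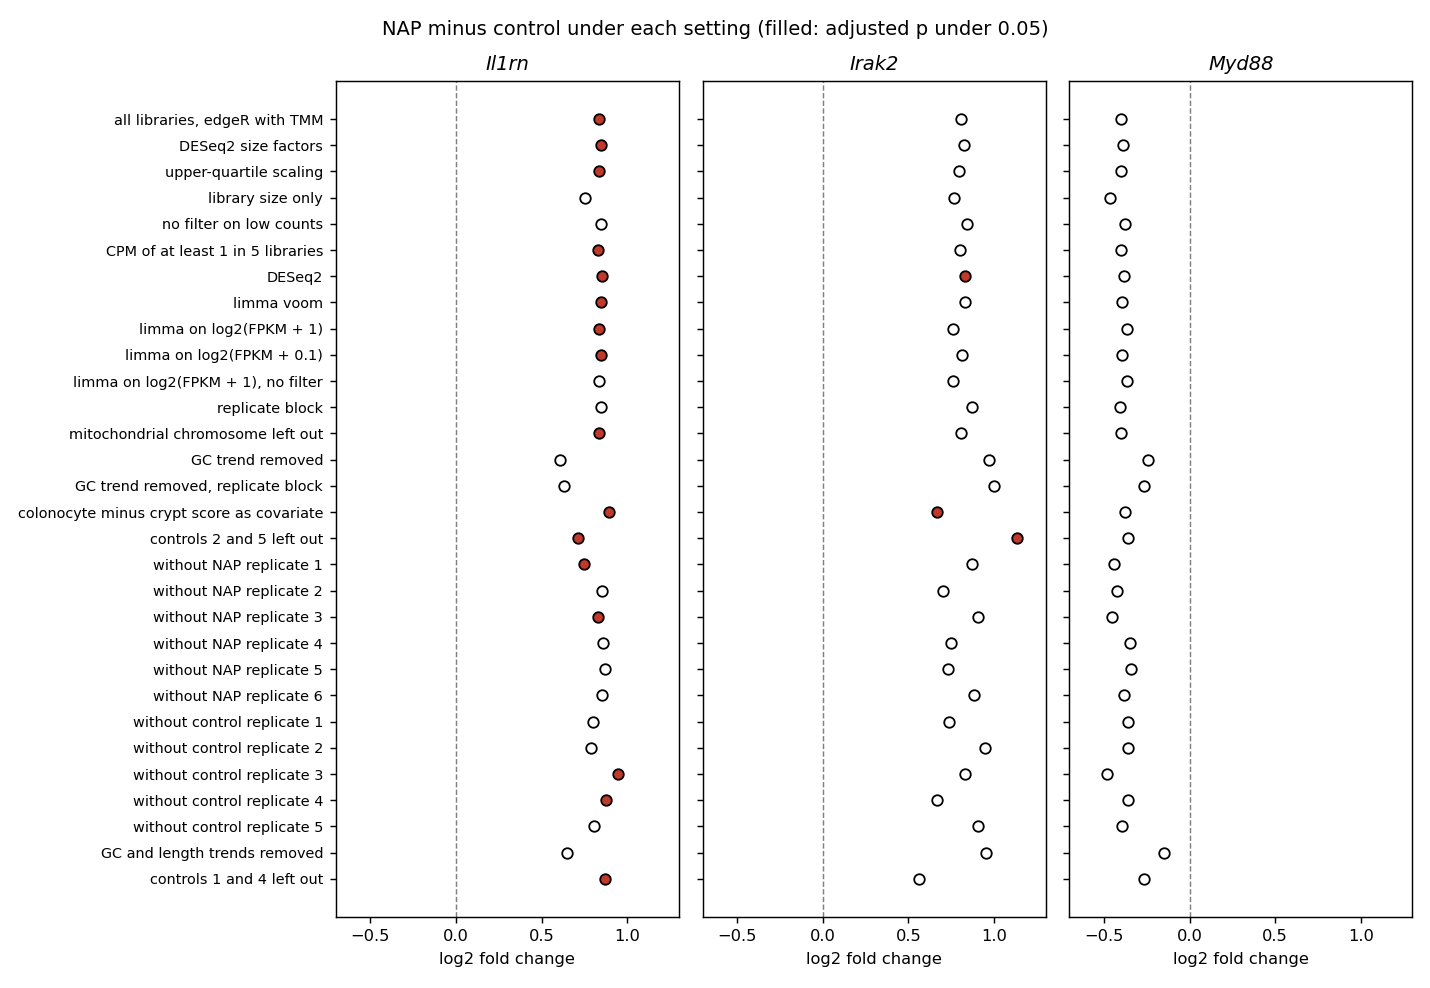
Log2 fold change of Il1rn, Irak2 and Myd88, NAP minus control, in all libraries with edgeR and under 29 other settings, with a point for each setting, filled where the adjusted p was under 0.05. Il1rn lies between 0.61 and 0.95 and Irak2 between 0.56 and 1.13, right of 0 throughout, and Myd88 between −0.48 and −0.15, left of 0 throughout.

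Levels of different genes were compared on the deposited FPKM values, which are divided by gene length. Il1rn had the highest level in both groups, at 93.0 ± 13.5 FPKM in NAP libraries and 51.9 ± 10.2 FPKM in control libraries, and its lowest library lay above the highest library of each other gene in the same group. In NAP libraries Irak2 followed at 19.5 ± 6.05 FPKM, then Irak1 at 16.5 ± 1.90, Irak4 at 12.9 ± 1.203, Myd88 at 10.5 ± 1.63 and Il18 at 9.73 ± 11.04 FPKM. Of these neighbours only Irak1 and Irak4 did not overlap, at 14.7 to 19.03 FPKM for Irak1 and 11.1 to 14.3 FPKM for Irak4. In control libraries the order was Irak1 at 16.3 ± 5.24 FPKM, Myd88 at 13.7 ± 1.99, Irak4 at 12.5 ± 2.06, Irak2 at 11.1 ± 3.50 and Il18 at 5.77 ± 3.18 FPKM, and each neighbour overlapped the next. Irak2 was thus the second of the 9 genes in NAP libraries and the fifth in control libraries, by an order that was not tested. Il1r1 was lower in both groups, at 1.195 ± 0.64 FPKM in NAP libraries and 1.203 ± 0.63 FPKM in control libraries, with no overlap with Il18 in either group. Il1rap and Il33 came last, at 0.29 ± 0.07 and 0.21 ± 0.10 FPKM in NAP libraries, against 0.20 ± 0.10 and 0.30 ± 0.27 FPKM in control libraries.

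**Figure D4:**
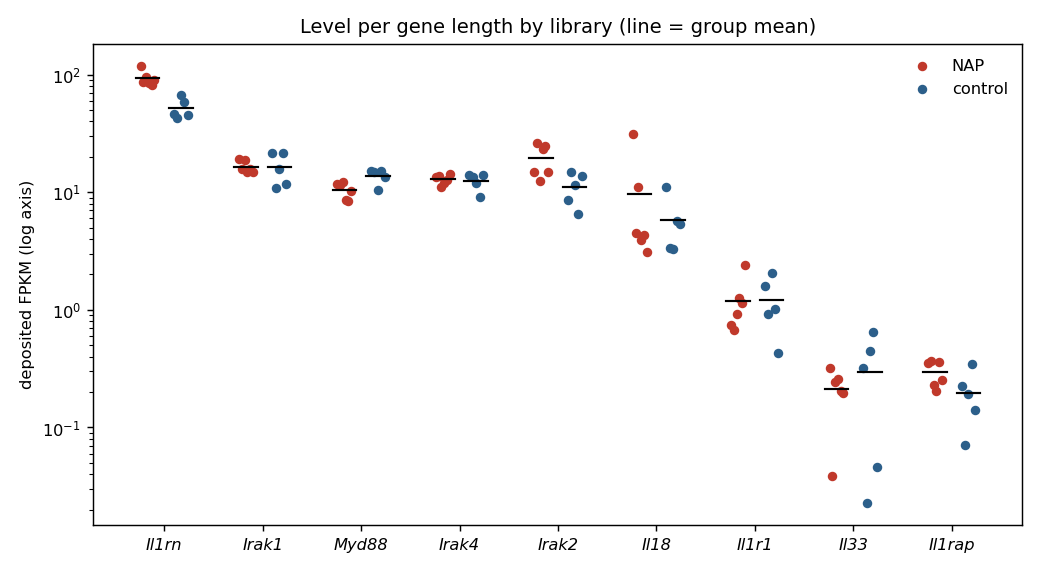
Deposited FPKM of the 9 genes on a log10 axis, with a point for each of 6 NAP and 5 control libraries. Il1rn stands highest in both groups, at 81.2 to 119 FPKM in NAP libraries and 42.5 to 66.9 FPKM in control libraries, and Il1rap and Il33 stand lowest.

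The rest of the pathway was read from lists of genes by role. For comparison with the lists, 1.05% of all tested genes were called higher and 1.07% lower. Of 7 other ligands only Il1a, the interleukin-1α gene, had enough counts to be tested, at 5.20 ± 2.34 CPM in NAP libraries and 2.53 ± 2.36 CPM in control libraries (log2 fold change 1.03, SE 0.49; edgeR, adjusted p = 0.223). Control 4 held 6.73 CPM of Il1a and the other controls 1.26 to 1.66 CPM, below the lowest NAP library at 3.23 CPM. Without control 4 the log2 fold change of Il1a was 1.81 (adjusted p = 0.0369), and without NAP library 1 it was 0.78 (adjusted p = 0.333). It also passed with the colonocyte score as a covariate, at 1.48 (adjusted p = 0.0142), and with controls 1 and 4 left out, at 1.89 (adjusted p = 0.0269). Il1b, the interleukin-1β gene, had 7 counts over all NAP libraries and 9 over all control libraries. Of 9 other receptors and decoys, 5 were tested and 0 passed. Il1rl1, which codes for the interleukin-33 receptor ST2, had a log2 fold change of 3.06 (SE 0.95; edgeR, adjusted p = 0.0851). NAP libraries held 0.80 to 9.05 CPM of Il1rl1 with a median of 1.11 CPM, and control libraries 0 to 1.19 CPM with a median of 0.14 CPM, overlapping through control 2. Control 5 had 0 counts of Il1rl1, which allows up to 0.215 CPM, the value of 3 counts in that library. Without NAP library 5, which held the 9.05 CPM, the log2 fold change was 2.12 (adjusted p = 0.206), and without control 2 it was 4.42 (adjusted p = 0.0978). Over the 28 other settings with a value it ran from 0.32 to 4.42 and passed in 3, with DESeq2, with the colonocyte score and with controls 2 and 5 left out (adjusted p 0.0101 to 0.046). NAP library 5 also held 112 of 126 Dcn, 80 of 82 Col3a1 and 46 of 48 Col1a2 counts of the NAP group, all from fibroblast markers. It had the highest sum of the 8 fibroblast markers, 52.7 CPM, of which Pdgfrb gave 30.85 CPM. The part of these in the Il1rl1 level was not tested. Sigirr, a receptor known to restrain the pathway, had a log2 fold change of −0.40 (SE 0.23; edgeR, adjusted p = 0.317), and passed in 1 of 29 other settings, with the colonocyte score, at −0.44 (adjusted p = 0.0323).

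In the signalling relay between the IRAKs and NF-κB, 0 of 18 tested genes passed, and 12 had positive and 6 negative log2 fold changes, with a median of 0.20. Of all tested genes, 6640 had positive and 8200 negative log2 fold changes, with a median of −0.07. Chuk, which codes for the kinase IKKα, averaged 158 ± 45.7 CPM in NAP libraries and 94.0 ± 12.6 CPM in control libraries (log2 fold change 0.75, SE 0.21; edgeR, adjusted p = 0.0706). NAP libraries 1 and 3, at 94.9 and 110.7 CPM, lay near or within the control range of 76.9 to 106 CPM, and they were also among the lower NAP libraries for Irak2. The ubiquitin ligase gene Peli1 had a log2 fold change of 0.66 (SE 0.21; edgeR, adjusted p = 0.0894). Of 29 other settings Chuk passed in 4, among them those without NAP library 1 or 3 (adjusted p = 0.0352 and 0.044), and Peli1 in 3, among them that without NAP library 1 (adjusted p = 0.0467). Over the 29 settings Chuk ran from 0.34 to 0.86 (adjusted p up to 0.413) and Peli1 from 0.27 to 0.75 (adjusted p up to 0.452). Of 14 genes for inflammasomes and ligand processing, 12 were tested and 0 passed, with 10 positive and 2 negative log2 fold changes and a median of 0.57. Nlrp10, a NOD-like receptor without leucine-rich repeats, ranged from 10.6 to 25.0 CPM in NAP libraries and from 1.98 to 11.5 CPM in control libraries (log2 fold change 1.51, SE 0.38; edgeR, adjusted p = 0.0556). Only control 3 reached the NAP range, and Nlrp10 passed in 8 of 29 other settings, among them those without NAP library 1 or 3 or control 3 (adjusted p 0.0395 to 0.0482). Over the 29 settings its log2 fold change ran from 1.06 to 1.88, with adjusted p up to 0.168. Naip1, a sensor for the NLRC4 inflammasome, had a log2 fold change of 0.80 (SE 0.26; edgeR, adjusted p = 0.0915), and near-identical Naip copies make its count uncertain. It passed in 3 of 29 other settings, with DESeq2, the colonocyte score or controls 2 and 5 left out (adjusted p 0.00767 to 0.0386). Over the 29 settings its log2 fold change ran from 0.52 to 1.28, with adjusted p up to 0.393. Casp1, the enzyme that matures interleukin-18, averaged 163 ± 21.1 CPM in NAP libraries and 149 ± 79.4 CPM in control libraries (log2 fold change 0.13, SE 0.30; edgeR, adjusted p = 0.815); it was named after its values were seen.

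Toll-like receptors share MyD88 and the IRAKs with interleukin-1 receptors. Of 12, 5 were tested and 0 passed, and 4 had positive and 1 negative log2 fold changes, with a median of 0.245. Tlr2, the negative one, had a log2 fold change of −0.83 (SE 0.56, edgeR adjusted p = 0.3897). Tlr3, which signals without MyD88, had a log2 fold change of 0.24 (SE 0.17, edgeR adjusted p = 0.415). With controls 2 and 5 left out Tlr2 was positive, at 0.82 (adjusted p = 0.157), and with controls 1 and 4 left out it was −1.41 (adjusted p = 0.0394). With the colonocyte score as a covariate it was −0.65 (adjusted p = 0.016). Of all tested genes, 1.05% passed higher and 1.07% lower, and the median log2 fold change was −0.07. Among NF-κB feedback and epithelial target genes, 18 of 21 were tested, 1 passed higher and 0 lower, and 11 had positive and 7 negative log2 fold changes, with a median of 0.25. The gene that passed was Tnfaip3, which codes for A20, an ubiquitin-editing enzyme that restrains NF-κB. It had 98.9, 110.3, 85.0, 119, 132 and 97.8 CPM in NAP libraries 1 to 6, against 61.4, 71.0, 76.8, 50.2 and 70.8 CPM in control libraries 1 to 5. All NAP libraries lay above all control libraries (log2 fold change 0.70, SE 0.16; edgeR, adjusted p = 0.0456), and the call held in 12 of 29 other settings. Of the settings that leave out a single library, it held only without NAP library 1 or 3, and the adjusted p was otherwise 0.0545 to 0.121. Nfkbib, which codes for the inhibitor IκBβ, had a log2 fold change of −0.69 (SE 0.19; edgeR, adjusted p = 0.0668), and it passed in 3 of 29 other settings, among them that without NAP library 1 (adjusted p = 0.0395). Over the 29 settings its log2 fold change ran from −0.79 to −0.20, with adjusted p up to 0.407. Bcl3, an NF-κB cofactor gene named after its values were seen, had 34.2 to 45.4 CPM in NAP libraries and 45.8 to 58.5 CPM in control libraries. Its groups did not overlap (log2 fold change −0.33, SE 0.13, edgeR adjusted p = 0.147). Groups did not overlap for 2.57% of all tested genes with NAP lower, as for Bcl3, and for 2.14% with NAP higher, as for Tnfaip3. The chemokine genes Cxcl1, Cxcl2 and Cxcl5, also named after their values were seen, had log2 fold changes of 1.04 (SE 0.49), 0.93 (SE 0.54) and 0.89 (SE 0.36) at levels of 7.13 ± 2.96, 2.42 ± 1.40 and 5.40 ± 2.25 CPM in NAP libraries and 3.44 ± 2.64, 1.25 ± 0.80 and 2.91 ± 1.01 CPM in control libraries (edgeR, adjusted p = 0.221, 0.319 and 0.157). Other genes of that list differed: Icam1 had −0.92 (SE 0.82) and Ptgs2 −0.44 (SE 0.72), while Tnf had 0.29 (SE 0.38) and Nfkbia 0.11 (SE 0.25).

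**Figure D5:**
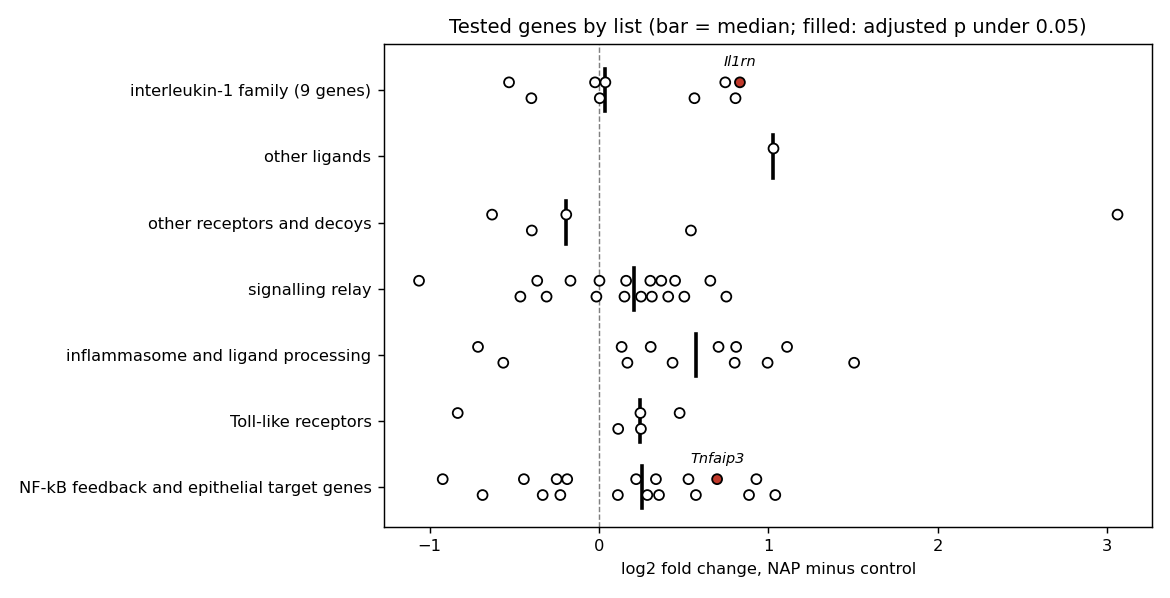
Log2 fold changes, NAP minus control, of the tested genes of each list, with a point for each gene, filled where the adjusted p was under 0.05, and a bar for the list's median. The filled points are Il1rn among the 9 genes and Tnfaip3 among NF-κB feedback and target genes. The inflammasome list has a median of 0.57, against −0.07 over all tested genes.

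The genes whose log2 CPM followed Il1rn most closely over the 11 libraries were Rundc3b (Pearson r = 0.95, Spearman rho = 0.93) and Itgb6, an integrin β subunit gene (r = 0.95, rho = 0.91). Itgb6 was called higher itself (log2 fold change 0.90, SE 0.16; edgeR, adjusted p = 0.0343), with 21.3 to 27.3 CPM in NAP libraries and 10.7 to 15.7 CPM in control libraries, and its call was lost without NAP library 2, 4 or 5 or control 1, 2 or 5 (adjusted p 0.0789 to 0.112). The call held in 16 of 29 other settings in all, and the adjusted p reached 0.153 in the other 13. For Irak2 they were Cobl, an actin nucleator gene of the brush border (r = 0.99, rho = 0.96), and the noncoding gene Oip5os1 (r = 0.99, rho = 0.94). For Myd88 they were Slc26a6, an anion exchanger gene (r = 0.96, rho = 0.92), and Vac14 (r = 0.95, rho = 0.97). These values are descriptions, since the libraries share their groups and their scaling. Each gene was also picked as among the closest of the tested genes with a symbol, leaving out Gm, LOC and Rik names.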

How the data were processed

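The authors deposited whole-number counts per gene, and FPKM values were deposited beside them. Per the submitters' processing notes, the tools were Trimmomatic 0.39, HISAT2 2.2.1 and featureCounts of Subread 2.0.8, with build GRCm39. Per the labels' protocols, RNA was poly(A)-selected and copied with random hexamers. Strand setting, annotation release and handling of multi-mapping reads: not given in the sources used here.

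Counts were filtered with filterByExpr, TMM-scaled and compared (NAP minus control) by the robust quasi-likelihood test of edgeR 4.0.16 under R 4.3.3, over 11 libraries with no covariate. P-values were adjusted by Benjamini-Hochberg over 14840 tested genes at a threshold of 0.05. The SE was taken as the log2 fold change over the root of F. Alternatives used DESeq2 1.42.0, limma 3.58.1 on voom or on log2(FPKM + 1) or log2(FPKM + 0.1), other scalings and filters, a replicate block, GC and length trends removed, a colonocyte score, and libraries left out. The statistics were tested on simulated counts.

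The members and lists were chosen with earlier results of these data known. Named genes were all 9 members, each list's called genes and its 2 smallest p-values. For the 3 members with the smallest p, the 2 genes most correlated with each were also named. Exceptions are stated. In choosing correlated genes, also those of Il18, genes without a symbol and Gm, LOC and Rik names were left out. Of the listed ligands, 4 were found under older symbols through RefSeq synonyms. Transcript GC content came from GENCODE M21 (84% of tested genes). Counts of 0 allow up to 0.143 to 0.181 CPM in NAP and 0.137 to 0.181 CPM in control libraries (3 counts, counting error only). No 2 libraries of the same group agreed within sampling noise. They were unevenly alike: by chi-square per degree of freedom, controls 2 and 5 were closest (8.32) and controls 2 and 4 furthest apart (349.5).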

Additional observations from a re-analysis of the deposited data

Results flagged for a closer look

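In 7 of 40 groups of libraries, over 20 genes, 1 library lay far from the rest of its group by Dixon's criterion. For independent groups of normally distributed values, chance meets it in about 1 of 20. Here the CPM were not put on a log scale, the genes share the same libraries, and all 7 were highest values. The number of flags can thus not be set against that rate. NAP library 1 stood apart for Il1rn, at 346.4 CPM with the next NAP library at 274.1 CPM, and for Il18, at 84.89 CPM with the next at 29.59 CPM. Without it the log2 fold change was 0.75 for Il1rn, which stayed past the threshold (edgeR, adjusted p = 0.0359), and −0.12 for Il18. NAP library 6 was high for Il1r1, at 15.46 CPM against 8.024 CPM in the next NAP library, and for Tlr3, at 26.82 CPM against 21.61 CPM. NAP library 5 was high for Il1rl1, at 9.047 CPM against 3.053 CPM in the next. Among control libraries, control 4 was high for Il1a, at 6.733 CPM against 1.66 CPM in the next, and control 2 for Il1rl1, at 1.188 CPM against 0.1731 CPM.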

How the results depend on the processing

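Il1rn kept its direction in 29 of 29 alternatives (log2 fold change 0.61 to 0.95). Its call was lost in 14 of them: in 7 of the 11 that leave out a library, and with scaling by library size only (0.75, adjusted p = 0.096), no filter on low counts (0.85, adjusted p = 0.0628), limma on unfiltered log2(FPKM + 1) (0.84, adjusted p = 0.143), a replicate block, and GC trends removed alone, with the block or with length trends (0.61, 0.63 and 0.65, adjusted p = 0.107, 0.211 and 0.0934). The cause was not tested. The number of the 9 genes called was then 0. It was 2, Il1rn and Irak2, with DESeq2, the colonocyte score as covariate, or controls 2 and 5 left out, and 0 to 1 when single libraries were left out. Over all genes, 315 were called, against 41 with library size only, 89 with no filter, 1622 with DESeq2, 0 with unfiltered FPKM, 31 with the GC trend removed, 0 with GC and length trends removed, 3133 with the score, 824 without controls 2 and 5, 1315 without controls 1 and 4, and 0 to 814 when single libraries were left out. Removing length trends and leaving out controls 1 and 4 were chosen after seeing the data.

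The labels state no pairing by replicate number. Deviations of same-numbered NAP and control libraries correlated at 0.424, 0.341, −0.074, −0.3 and 0.3 across genes. Unlike-numbered libraries correlated from −0.418 to 0.405, so these values do not settle whether the numbers pair them. With the number as a replicate block, Il1rn had 0.84 (adjusted p = 0.138) and 0 genes were called, also with the GC trend removed.

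The following values changed sign. Irak1 was −0.119 and Irak4 −0.014 with library size only, where the median of all genes was −0.139. Il1r1 was 0.023 on log2(FPKM + 0.1). With the score, Il33 was 0.601 and Il1r1 0.194; without controls 1 and 4 they were 0.261 and 0.088. Without controls 2 and 5, Irak1 was −0.245, Sigirr 0.136 and Tlr2 0.816. Sigirr was 0.033 and Tlr3 −0.057 with the GC trend removed and the block, Tlr3 −0.049 with the GC trend alone, and 0.044 and −0.128 with GC and length trends removed. With single libraries left out, Il18 ran from −0.117 to 1.136, Il1r1 from −0.344 to 0.259, Irak1 from −0.092 to 0.136, Irak4 from −0.055 to 0.094, and Cela1 from −0.016 to 1.954 and Rsad1 from −0.183 to 0.353 (lowest without NAP library 1). Il33 had no value under the stricter filter of 1 CPM in 5 libraries.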

Other observations

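The genes whose log2 CPM followed Il18 most closely over the 11 libraries, named after its values were seen, were Cela1, a pancreatic-type elastase gene (Pearson r = 0.93, Spearman rho = 0.79), and Rsad1 (r = 0.93, rho = 0.69). NAP library 1 held 1021 CPM of Cela1, the other NAP libraries 33.7 to 138 CPM and the control libraries 45.4 to 107 CPM. That library also held the highest level of Rsad1, at 20.5 CPM, and of Il1rn. Control 1 and NAP library 3 came next for Cela1 and Rsad1, as they did for Il18. The likeness without NAP library 1 was not tested.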
